A study of Mus musculus with 24 samples.

Results

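Guanylate-binding proteins (GBPs) are large GTPases that are made when cells receive interferon. They assemble on the membranes around intracellular bacteria and parasites, break those membranes open and expose the microbe to the inflammasome and autophagy machinery. Interferon-gamma acts through its receptor and the kinases JAK1 and JAK2, and its target genes are known to carry GAS elements or the ISRE elements that the induced factor IRF1 binds. The 5 genes described here, Gbp2, Gbp3, Gbp4, Gbp7 and Gbp9, were taken by name as rows of a table of 22009 named genes. In mouse CD4+ T cells stimulated through CD3 and CD28, all 5 were lower in Th2 cultures than in Th0 cultures, by 4.45-fold (Gbp3) to 7.01-fold (Gbp2) averaged over 6 time points. Against resting cells Gbp2 was 22.3-fold higher in Th0 and 3.18-fold higher in Th2 cultures, whereas Gbp9 was 3.67-fold lower in Th2 cultures and its 1.36-fold difference in Th0 did not reach the 2-fold threshold.

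The cells were CD4+ T cells of wildtype C57BL/6 mice, adult by the labels with no age in weeks, purified from spleen by negative magnetic selection and pooled over mice before culture. The labels call them purified CD4+ cells, whereas the methods of the study name naive cells. Resting cells gave 2 libraries. Th0 cultures received anti-CD3e and anti-CD28 alone, Th1 cultures received recombinant IL-12 and anti-IL-4 besides, and Th2 cultures received recombinant IL-4, anti-IFN-gamma and anti-IL-12 besides, each sequenced once at 4, 8, 12, 16, 20 and 24 h. For 4 more libraries, stimulation had lasted 16 h when actinomycin D, an inhibitor of transcription, was added, and cells were taken at 0, 1, 2 and 4 h after its addition, with no skewing named in the labels. Levels are RPKM, read counts divided by transcript length in kilobases and by the mapped total of the library. The mapped total, recovered from the steps between low values, ranged from 17512385 to 33017133 reads per library. No culture was repeated, so no p-value below measures the spread between cultures of separate mice.

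The resting libraries lay above every culture in the summed genes of T cells, macrophages, B cells and natural killer cells. They lay within the range of the cultures in those of red cells, dendritic cells and CD8 cells. The summed level of 19 monocyte and macrophage genes was 1088 and 1113 RPKM at rest and between 61.4 and 178 RPKM in the 18 cultures, and the sum of 7 red cell genes was 38837 and 42382 RPKM at rest and between 142 and 47109 RPKM in cultures, highest in a Th2 culture. B cell genes (8) summed to 71.1 and 82.1 RPKM at rest, to between 12.6 and 65.0 RPKM in cultures and to between 3.80 and 5.59 RPKM with actinomycin. Dendritic cell genes (8) summed to between 57.5 and 59.8 RPKM at rest and between 38.3 and 79.9 RPKM in cultures, natural killer cell genes (6) to 74.8 and 76.5 RPKM against 23.2 to 59.6 RPKM, and the CD8 genes (2) to 12.4 and 12.7 RPKM against 6.59 to 15.7 RPKM. None of these markers was at 0 in every library of a group. The T cell genes (8, with Cd4 at 326 and 328 RPKM at rest) summed to 2049 and 2082 RPKM at rest. In the 18 cultures they summed to between 1428 and 1720 RPKM. The title tags of the resting libraries also differ from those of the cultures, so preparation and activation cannot be told apart in any comparison with rest. In bulk RNA, fewer cells of one type and less RNA per cell cannot be told apart either.

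Gbp7, Gbp3 and Gbp2 lie in this order on the plus strand of mouse chromosome 3 (GRCm38), at chr3:142530342-142550149, chr3:142560026-142573209 and chr3:142620602-142638008, with Gbp2b between Gbp3 and Gbp2. Gbp4 and Gbp9 lie on the minus strand of chromosome 5, at chr5:105115767-105139586 and chr5:105077630-105139539, where their annotated spans overlap each other and that of Gbp8. Of the 50-base windows in the annotated transcripts, 2.03% of those of Gbp2 were identical to windows of another gene, 3.75% of Gbp3, 7.70% of Gbp4, 8.05% of Gbp9 and 12.7% of Gbp7, the last mostly with the predicted gene Gm43802 inside it. How reads shared between such copies were assigned is not given in the sources used here, so the levels of Gbp7 and of the overlapping Gbp4, Gbp9 and Gbp8 are uncertain as separate values.

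The 250 bases before the RefSeq start (GRCm38.p6, plus strand) are shown for the 3 members with an entry, because the conditions compared differ in an antibody to interferon-gamma and these windows carry the letters that interferon-activated factors are known to bind. Capitals mark the letters GAAANNGAAA on either strand (ISRE-like) and, in Gbp7, also TTCNNNGAA (GAS-like), which reads the same on both strands. The windows lie at chr3:142620413-142620662 for Gbp2, chr3:142559794-142560043 for Gbp3 and chr3:142530086-142530335 for Gbp7.
Gbp2: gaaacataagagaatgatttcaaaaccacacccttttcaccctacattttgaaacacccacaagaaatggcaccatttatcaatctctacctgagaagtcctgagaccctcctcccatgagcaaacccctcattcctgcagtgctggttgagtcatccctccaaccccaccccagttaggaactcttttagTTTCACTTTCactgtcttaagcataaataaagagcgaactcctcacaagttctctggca
Gbp3: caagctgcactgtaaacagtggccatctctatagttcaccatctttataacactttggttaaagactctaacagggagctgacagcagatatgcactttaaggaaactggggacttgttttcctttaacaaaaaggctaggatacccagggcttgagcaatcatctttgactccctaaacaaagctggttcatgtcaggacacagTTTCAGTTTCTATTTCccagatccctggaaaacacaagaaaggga
Gbp7: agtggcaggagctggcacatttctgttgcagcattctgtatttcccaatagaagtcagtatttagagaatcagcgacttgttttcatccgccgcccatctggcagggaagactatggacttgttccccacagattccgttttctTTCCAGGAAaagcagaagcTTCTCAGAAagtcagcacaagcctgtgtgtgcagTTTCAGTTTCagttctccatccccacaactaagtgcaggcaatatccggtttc

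In all 3 windows the ISRE-like letters read on the opposite strand, as TTTCNNTTTC, and began 59 bases before the start in Gbp2, 53 bases before it in Gbp7, and 45 and 39 bases before it in Gbp3, where the pair overlap. These RefSeq starts differ from the starts of the gene spans given above. The Gbp2 window runs past chr3:142620602, where its span begins, so its ISRE-like letters lie inside that span. The Gbp3 window also runs past the start of its span, but its letters lie before it. ISRE-like letters were present in 2.98% of the 32851 RefSeq windows of the same length. The GAS-like letters began 106 and 87 bases before the start in Gbp7 and were in 7.02% of all windows. Both kinds were present in 0.332% of windows. A second RefSeq window of Gbp3, at chr3:142560106-142560355, held neither. These matches describe letters and were not tested as binding sites.

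Gbp2, whose protein coats pathogen vacuoles, was the most abundant of the 5 in every stimulated library. It stood at 47.9 and 45.3 RPKM in the resting libraries. In Th0 cultures it was at 1529, 1996, 992, 739, 755 and 793 RPKM at 4, 8, 12, 16, 20 and 24 h. In Th1 cultures the values in the same order were 2015, 969, 579.7, 806, 704 and 647 RPKM. Every Th0 and Th1 culture thus lay far above both resting libraries. By RPKM, Gbp2 ranked 1952 and 2096 in the table at rest and 25 in Th1 at 4 h. In Th2 cultures Gbp2 was at 353, 185, 147, 124, 98.4 and 94.7 RPKM, above rest in 6 of 6 and below every Th0 and Th1 culture.

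Gbp4 was next in abundance in every culture. It stood at 49.5 and 49.96 RPKM at rest, from 4442 and 5337 reads. Th0 cultures held 503, 471, 261, 201, 154 and 132 RPKM from 4 to 24 h, and Th1 cultures 668, 284, 158, 202, 122 and 111 RPKM. All 12 of these were above rest. In Th2 cultures Gbp4 was at 117, 69.7, 39.5, 34.6, 25.9 and 23.6 RPKM, so that it was above rest at 4 and 8 h and below rest in the 4 later cultures; the lowest value rested on 2745 reads.

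Gbp3 had the lowest resting level of the 5, at 12.8 and 13.7 RPKM. It was at 113, 129.6, 66.7, 45.6, 36.6 and 28.6 RPKM in Th0 cultures and at 125, 73.9, 43.2, 49.6, 30.1 and 23.961 RPKM in Th1 cultures, all 12 above rest. In Th2 cultures it was at 36.7, 17.3, 13.6, 11.3, 7.58 and 6.61 RPKM. Of these, the 4 and 8 h cultures were above both resting libraries, the 12 h culture lay between them, and the last 3 were below.

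Gbp7, which has been tied to autophagy and to the oxidase that makes reactive oxygen species, stood at 26.4 and 26.1 RPKM at rest. Its values were 169, 148, 75.1, 56.2, 30.5 and 20.027 RPKM in Th0 cultures and 169, 67.7, 37.043, 46.4, 23.1 and 12.4 RPKM in Th1 cultures. The 24 h culture in Th0 and the 20 and 24 h cultures in Th1 were already below rest. In Th2 cultures it was at 36.7, 22.6, 12.7, 8.98, 5.02 and 4.06 RPKM, above rest at 4 h and below rest in the other 5.

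Gbp9 had the highest resting level, 54.6 and 53.0 RPKM. It was at 164, 146, 77.2, 58.1, 44.8 and 31.6 RPKM in Th0 cultures, above rest in 4 of 6, and at 213, 90.969, 50.9, 71.6, 37.1 and 26.1 RPKM in Th1 cultures, above rest in 3 of 6. In Th2 cultures it was at 44.8, 22.3, 13.012, 11.005, 8.13 and 7.15 RPKM, below both resting libraries in 6 of 6. Gbp9 was the only one of the 5 that was below rest at 4 h in Th2.

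**Figure D1:**
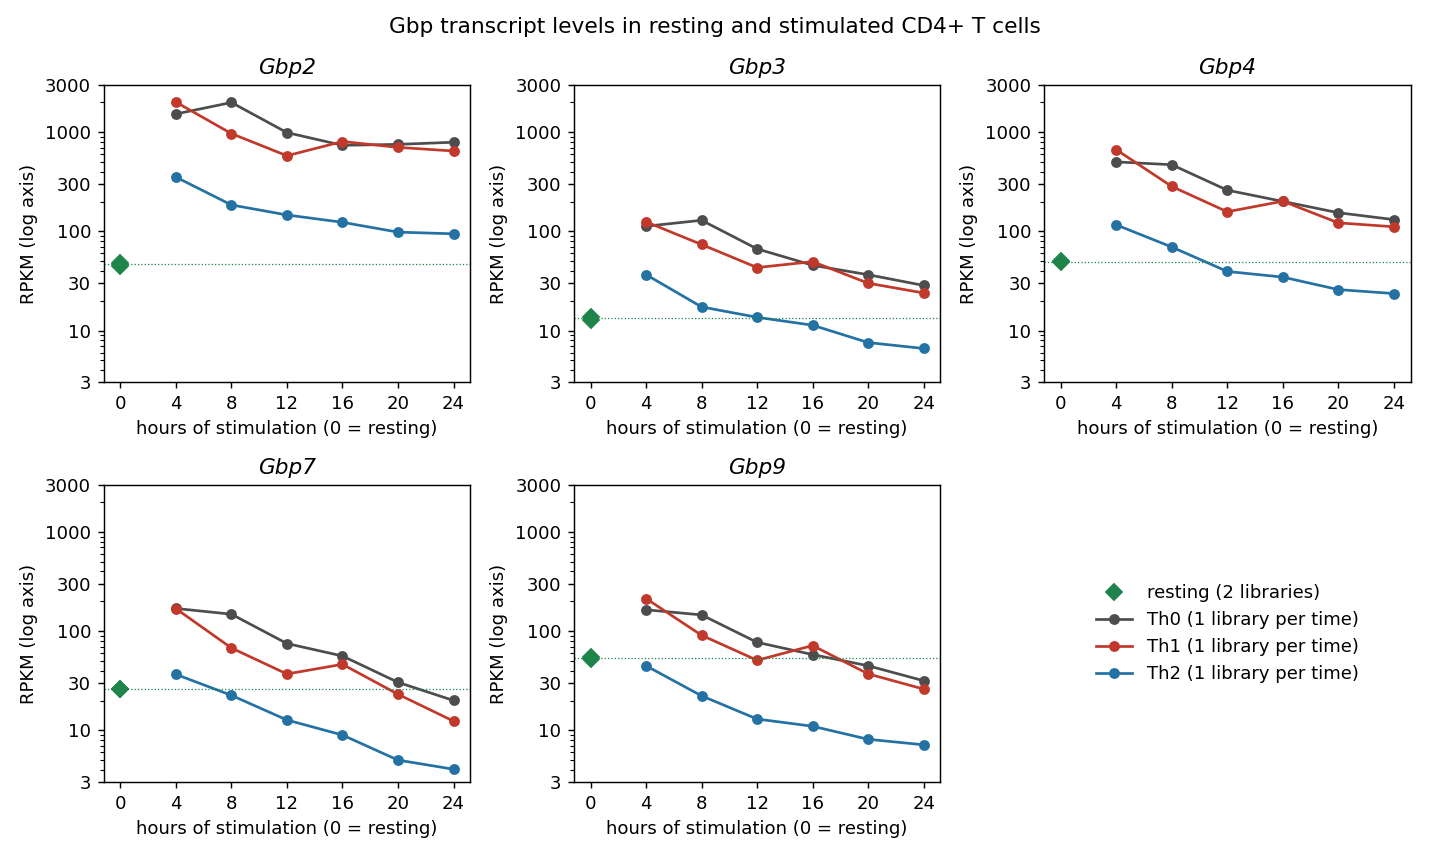
RPKM (log axis) of the 5 Gbp genes against hours of stimulation, with 1 library per point, green diamonds for the 2 resting libraries drawn at 0 h and a dotted line at their mean. The Th2 line lies below the Th0 and Th1 lines in each panel at each of the 6 time points, and only for Gbp2 does it stay above the resting level.

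The first comparison asked whether the Th2 medium, which holds IL-4 and an antibody to interferon-gamma, changed the 5 genes relative to the other media. Each difference is of log2(RPKM + 0.5), averaged over 6 time points with time as a factor, from limma fitted over 18 cultures and 10737 genes, and a gene was called at an adjusted p under 0.05 and at least a 2-fold difference. All 5 were called lower in Th2 than in Th0, where 1.83% of all genes tested were called lower. Gbp2 differed by -2.81 ± 0.16 (SE, adjusted p = 5.67e-09) and Gbp4 by -2.51 ± 0.11 (adjusted p = 9.63e-10). Gbp7 differed by -2.44 ± 0.13 and Gbp9 by -2.31 ± 0.13. Gbp3 had the smallest difference, -2.15 ± 0.12 (adjusted p = 8.05e-09). The median of the 5 was -2.44, against 0.0020 for all genes tested.

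At single time points the Th0 level of Gbp2 was between 4.33 and 10.8 times its Th2 level, with the widest gap at 8 h. The corresponding ranges were 3.08 to 7.47 for Gbp3, 4.31 to 6.76 for Gbp4, 4.61 to 6.58 for Gbp7 and 3.67 to 6.54 for Gbp9. In each gene all 6 Th2 values were below the Th0 value of the same hour. Against Th1 all 5 were again called lower in Th2, where 1.39% of all genes were. The differences were -2.53 for Gbp2, -2.25 for Gbp4, -2.12 for Gbp9, -1.87 for Gbp3 and -1.86 for Gbp7, with adjusted p between 5.31e-09 and 5.73e-08. These 2 comparisons share the Th2 libraries. Of 13 tested monocyte and macrophage genes, 3 were called lower in Th2 than in Th0, namely Lyz2 (-1.10), Cybb (-1.03) and Mpeg1 (-1.02), and 2 were called lower than in Th1, Cybb (-1.07) and Mpeg1 (-1.15). The summed level of the list ran from 62.2 to 158 RPKM in Th0, from 61.7 to 138 RPKM in Th1 and from 61.4 to 178 RPKM in Th2 cultures. The dendritic cell sum ran from 42.3 to 79.9 RPKM in Th0, from 46.4 to 76.7 RPKM in Th1 and from 38.3 to 45.8 RPKM in Th2. Its tested genes went both ways in Th2 against Th0, with Bst2 (-0.49) and Siglech (-0.28) lower and Zbtb46 (0.43) and Itgax (0.34) higher. None of these was called. The part of such cells in the Gbp differences was not tested.

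**Figure D2:**
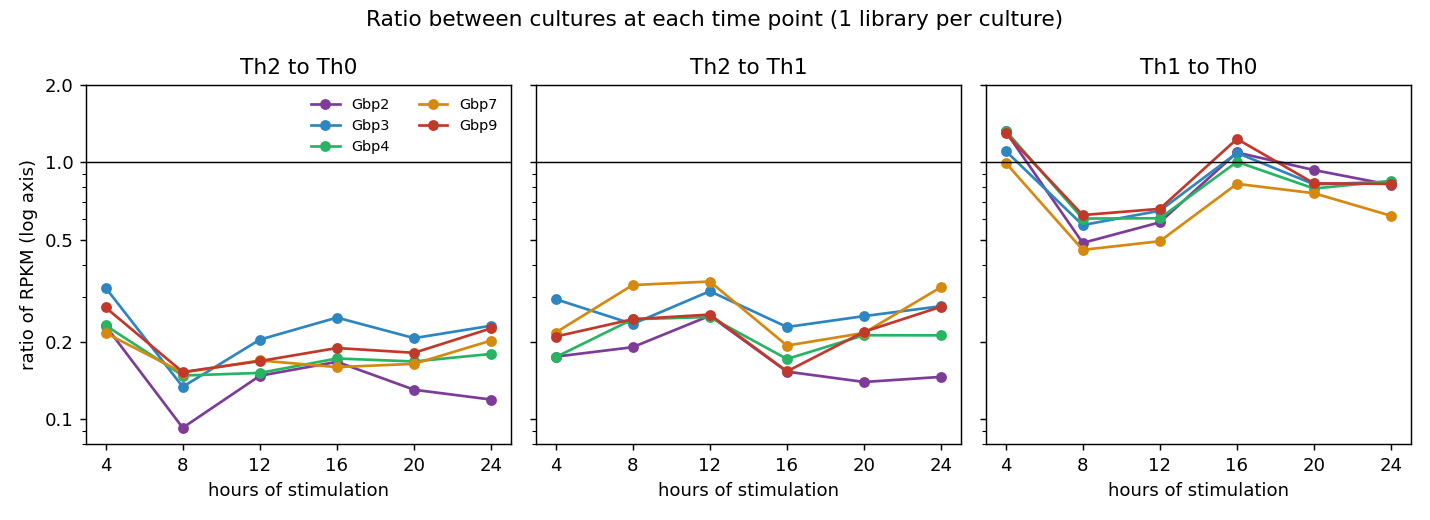
Ratio of RPKM (log axis) between cultures of the same hour for the 5 genes, with 1 library in each culture. All Th2 to Th0 and Th2 to Th1 ratios lie between 0.0927 and 0.344, whereas the Th1 to Th0 ratios lie on both sides of 1, from 0.456 to 1.33.

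Between Th1 and Th0, which differ in IL-12 and anti-IL-4, 0 of the 5 were called by limma, and 0.494% of all genes were called in either direction. At an unadjusted p under 0.05 there were 3 of 5. Gbp7 was lower in Th1 by 0.58 on the log2 scale (adjusted p = 0.0229, 1.49-fold, lower in 6 of 6 time points), which passed the p threshold but not the fold threshold. The other 4 differed by -0.28 (Gbp2 and Gbp3), -0.27 (Gbp4) and -0.19 (Gbp9), with adjusted p from 0.263 to 0.473, and each was lower in 4 of 6 time points. Over the 5 genes the 95% intervals reached from -0.85 to 0.08, so that a difference of 2-fold in either direction lay outside them. The ratios at 8 and 12 h, 0.456 to 0.659, were the lowest for each gene, and those at 4 and 16 h were the highest.

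Whether the gap between skewings widened with time was tested as a difference in slope per hour. None of the 5 was called by limma in any of the 3 pairs, and at an unadjusted p under 0.05 there were also 0. Of all genes, 5.15% were called for the gap between Th2 and Th0, 1.09% for that between Th2 and Th1 and 0.0279% for that between Th1 and Th0. The differences in slope ran from -0.024 to 0.008 on the log2 scale per hour, and their 95% intervals stayed within -0.072 and 0.050.

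Against the 2 resting libraries the 5 genes separated. In Th0 cultures 4 of 5 were called higher, where 6.07% of all 10897 genes tested were called higher: Gbp2 by 4.48 ± 0.21, Gbp4 by 2.33 ± 0.16, Gbp3 by 2.14 ± 0.17 and Gbp7 by 1.26 ± 0.17 on the log2 scale (SE; adjusted p from 2.81e-11 to 1.03e-05). Gbp9 differed by 0.44 ± 0.17 (adjusted p = 0.0360, 1.36-fold) and did not reach the fold threshold. In Th1 cultures 3 of 5 were called higher, against 8.22% of all genes: Gbp2 by 4.20, Gbp4 by 2.06 and Gbp3 by 1.86. Gbp7 (0.68, adjusted p = 0.0024) and Gbp9 (0.25, adjusted p = 0.213) were not called.

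In Th2 cultures the same contrast pointed in both directions. Gbp2 was called higher than at rest, by 1.67 ± 0.21 (adjusted p = 2.49e-06), where 10.7% of all genes were called higher. Gbp7 (-1.18 ± 0.17, adjusted p = 1.22e-05) and Gbp9 (-1.87 ± 0.17, adjusted p = 6.29e-08) were called lower, where 16.5% of all genes were. Gbp3 (-0.01, interval -0.37 to 0.34) and Gbp4 (-0.19, interval -0.52 to 0.14) were not called. With only the libraries compared and no time term, the differences of Gbp7 were 1.26 in Th0 and -1.18 in Th2, but their adjusted p was 0.242 and 0.206, and neither was called. Its Th0 difference without the 4 h cultures was 0.98, its Th2 difference was -0.96 without the 20 h and -0.90 without the 24 h cultures, all under 2-fold, and its Th1 difference without the 24 h cultures was 1.03, past it. The 3 contrasts share the resting libraries, whose macrophage and red cell markers are given above; their part in the differences from rest was not tested.

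**Figure D3:**
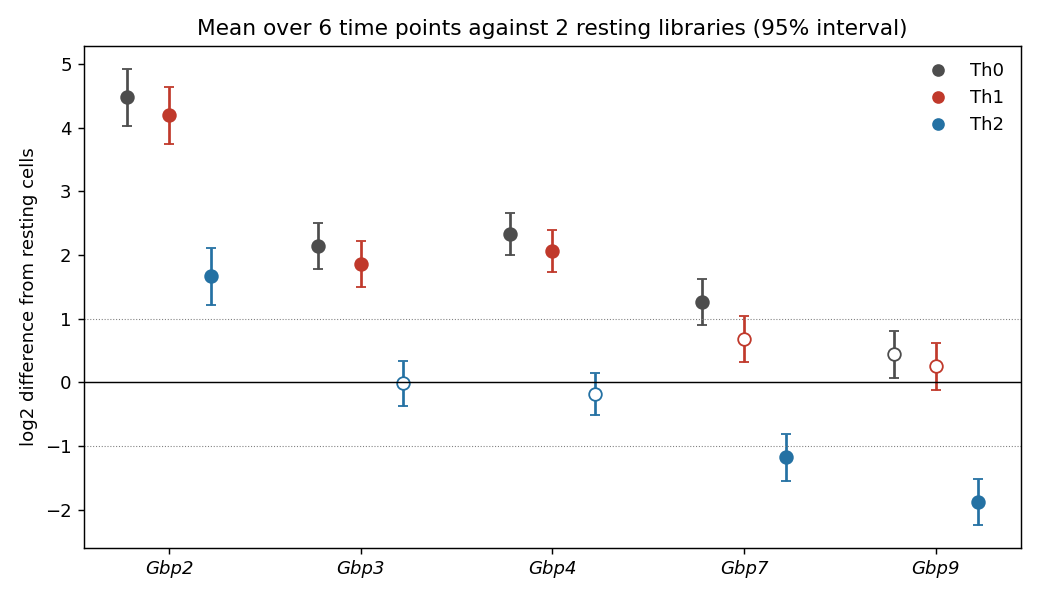
Log2 difference in RPKM between the mean of 6 cultures and 2 resting libraries for each gene and skewing, with 95% intervals from limma. Filled points were called and open points were not, dotted lines mark 2-fold, and from left to right the Th0 differences go from 4.48 (Gbp2) to 0.44 (Gbp9) while the Th2 differences go from 1.67 to -1.87.

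Taken by hour instead of by skewing, with the 3 cultures of an hour against rest, 2 of 5 were called higher at 4 h: Gbp2 (4.45 ± 1.22, adjusted p = 0.0102) and Gbp3 (2.56 ± 0.92, adjusted p = 0.0435). Of all genes 2.61% were called higher at 4 h. At 24 h only Gbp2 was called (2.96 ± 1.22, adjusted p = 0.0423), against 12.7% of all genes. The spread in this fit holds the difference between skewings. Without the Th2 cultures the 4 h count was 5 of 5, without the Th0 cultures it was 1, and without the Th1 cultures or either resting library it was 0. At 24 h the count was 2 without Th2, and 0 without Th0, Th1 or either resting library.

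All 5 fell between 4 and 24 h in a fit of one slope per gene over 18 cultures, a test added after the values were seen. The slopes were -0.160 ± 0.009 per hour on the log2 scale for Gbp7, -0.126 ± 0.010 for Gbp9, -0.112 ± 0.008 for Gbp3, -0.111 ± 0.010 for Gbp4 and -0.074 ± 0.012 for Gbp2 (adjusted p from 1.68e-10 to 2.59e-05). Of all genes 32.4% were called as falling by this rule. From 4 to 24 h Gbp7 went down 8.46-fold in Th0, 13.6-fold in Th1 and 9.05-fold in Th2. Gbp2 went down 1.93-fold, 3.11-fold and 3.73-fold. The course was not smooth in Th1, where all 5 were higher at 16 h than at 12 h, with 1 library at each. In Th0, Gbp2 and Gbp3 were higher at 8 h than at 4 h. Gbp2 also rose there from 739 RPKM at 16 h to 793 RPKM at 24 h, whereas Gbp4, Gbp7 and Gbp9 fell at each step.

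The make-up of these 5 genes therefore shifted from rest to culture, with Gbp2b and Gbp8 left out of the sum. On the RPKM scale, which is per length, Gbp2 was 24.1 and 25.1% of the summed level of the 5 genes at rest, Gbp4 25.9 and 26.6%, and Gbp9 28.2 and 28.6%. In the 18 cultures Gbp2 made up between 58.4% (Th2 at 8 h) and 78.9% (Th0 at 24 h), with no overlap with rest, and Gbp9 between 3.15 and 7.62%. The ratio of Gbp2 to Gbp7 was 1.74 and 1.82 at rest, 9.02 in Th0, 11.9 in Th1 and 9.62 in Th2 at 4 h, and 39.6, 52.2 and 23.3 at 24 h. The sum of the 5 was 188 and 191 RPKM at rest, reached 3190 RPKM in Th1 at 4 h and was lowest, 136 RPKM, in Th2 at 24 h.

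**Figure D4:**
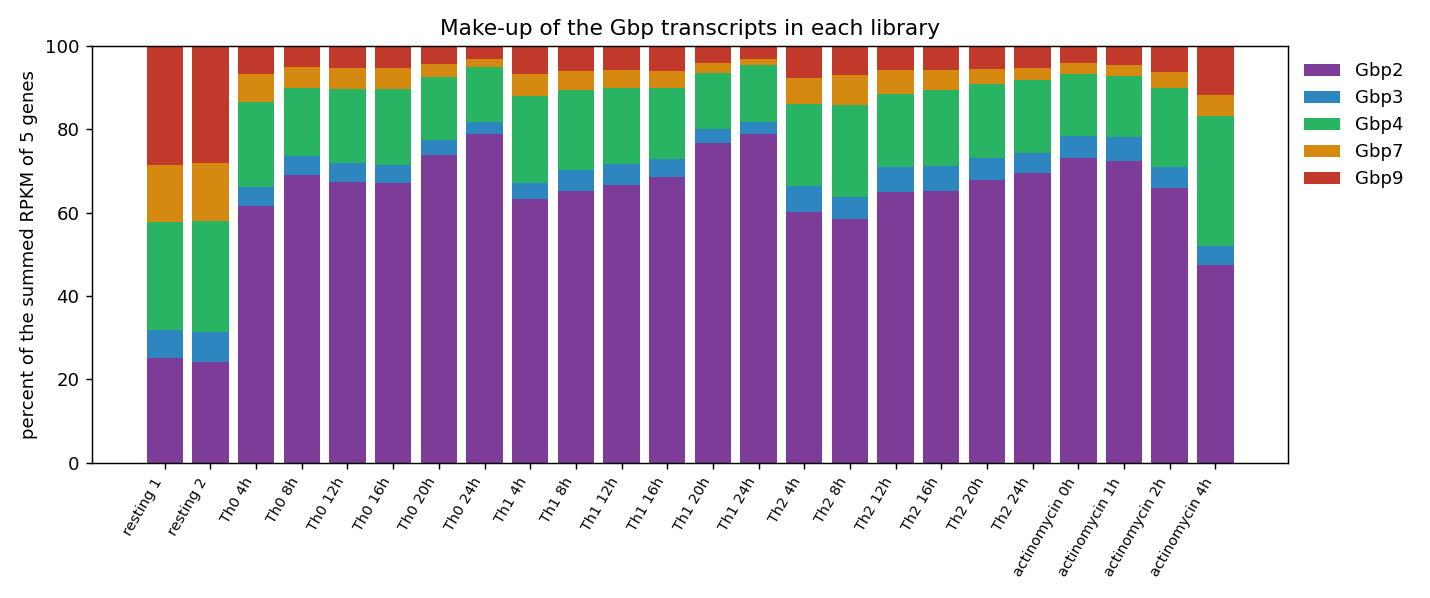
Percent of the summed RPKM of the 5 genes taken by each, as stacked bars with 1 bar per library. Gbp2 takes 24.1 and 25.1% at rest and 58.4 to 78.9% in the cultures, and its part with actinomycin goes from 73.1% at 0 h to 47.5% at 4 h.

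After actinomycin D the 5 genes went in both directions. At its addition, 0 h, they all stood between the Th2 and the Th0 cultures of 16 h, Gbp2 at 335 RPKM against 124 and 739 RPKM. Gbp2 then was at 300.1, 304 and 203 RPKM at 1, 2 and 4 h, and Gbp3, from 24.7 RPKM, at 23.5, 22.7 and 19.5 RPKM. Gbp7, from 12.1 RPKM, was at 11.2, 17.2 and 22.2 RPKM. Gbp4, from 68.1 RPKM, was at 60.2, 87.6 and 133 RPKM, and Gbp9, from 18.4 RPKM, at 18.9, 29.3 and 49.9 RPKM. The titles of the actinomycin libraries lack the tag that those of the cultures carry. Their summed genes of natural killer cells (8.76 to 12.8 RPKM) and CD8 cells (3.81 to 5.90 RPKM) lay below every culture. Their macrophage sum (122 to 144 RPKM) lay within the range of the cultures. Preparation and treatment thus cannot be told apart where they are set beside the 16 h cultures.

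RPKM is a share of the RNA that remains, so a slope here is relative to all other transcripts, whose median slope was 0.0022. By limma over 4 libraries, Gbp9 (0.38 ± 0.06 per hour on the log2 scale, SE, adjusted p = 1.25e-07), Gbp4 (0.27 ± 0.06, adjusted p = 6.62e-05) and Gbp7 (0.24 ± 0.06, adjusted p = 0.0029) were called as rising, and 8.95% of all 10571 genes tested were. Gbp2 was called as falling (-0.18 ± 0.06, adjusted p = 0.0198), where 12% of all genes were. Gbp3 was not called (-0.08 ± 0.06, adjusted p = 0.349). The fit had 2 residual degrees of freedom, so nearly all of its spread came from other genes, and an exact permutation test over the 4 libraries gave p = 0.0417 for Gbp3 and Gbp9 and p = 0.0833 for the other three, where 0.0417 is the smallest it can give. The calls depended on single libraries: 4 of 5 were called with all libraries, 3 without the 0 h library, 2 without the 1 h library and 0 without the 4 h library. The summed T cell genes were between 1788 and 1975 RPKM in these libraries.

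**Figure D5:**
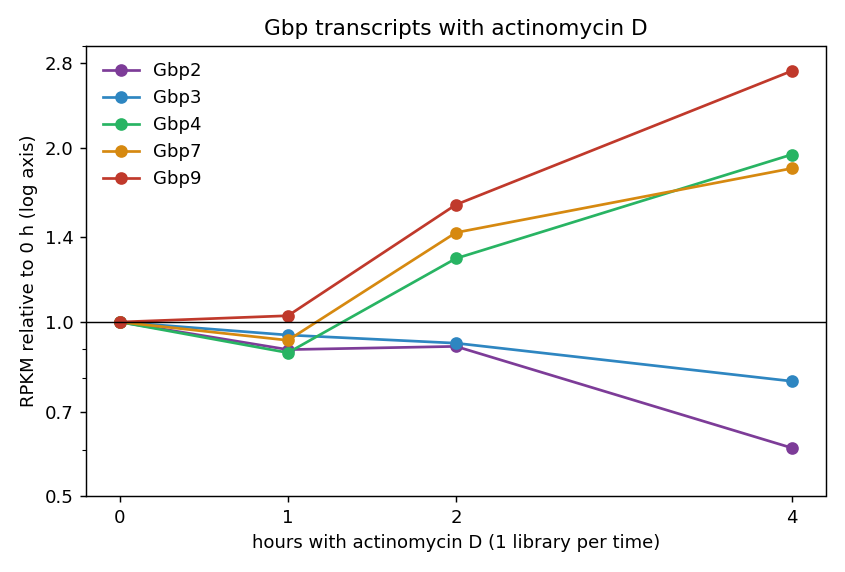
RPKM relative to the 0 h library (log axis) against hours with actinomycin D, with 1 library per time. At 4 h Gbp9, Gbp4 and Gbp7 stand at 2.72, 1.95 and 1.84 times their 0 h level, and Gbp3 and Gbp2 at 0.790 and 0.606 times.

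Of the other members of the family, Gbp2b and Gbp8 were rows of the table. Gbp1, Gbp5, Gbp6, Gbp10 and Gbp11 had no row in it under these names and were not analysed here. Gbp2b, the neighbour of Gbp2, was at 9.40 and 10.8 RPKM at rest and was called higher than rest in Th0 (3.39 ± 0.16), Th1 (3.10 ± 0.16) and Th2 cultures (1.09 ± 0.16). Gbp8, which overlaps Gbp9, was at 51.2 and 50.1 RPKM at rest and was called lower than rest in Th2 cultures (-1.71 ± 0.20). Its differences in Th0 (0.95 ± 0.20) and Th1 (0.67 ± 0.20) did not reach the fold threshold. Both were called lower in Th2 than in Th0, by 2.30 and 2.66 on the log2 scale. With actinomycin Gbp8 was called as rising (0.46 ± 0.06 per hour), and Gbp2b was not called (-0.04 ± 0.06). Over the 24 libraries Pearson's r of log2(RPKM + 0.5) was 0.98 between Gbp2 and Gbp2b, 0.98 between Gbp9 and Gbp8, 0.97 between Gbp7 and Gbp9, and 0.67 between Gbp2 and Gbp9, which was the lowest of the pairs among the 5. These correlations are descriptions over libraries that share cells and time points, and the first 2 pairs hold neighbouring or overlapping genes.

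The interferon-gamma pathway upstream of the family was measured in the same libraries. Of 9 tested genes of a list of 10, 0 were called higher and 3 lower in Th2 than in Th0, with a median difference of -0.35: the transcription factors Irf1 (-2.20) and Irf8 (-1.32) and the receptor chain Ifngr1 (-1.09). Against Th1, 3 were called lower, Ifng (-2.49), Irf1 (-1.96) and Irf8 (-1.96). Over all genes tested the share called lower in Th2 was 1.83% against Th0 and 1.39% against Th1. Between Th1 and Th0 the ligand Ifng was the only gene of the list that was called, higher in Th1 by 3.15 (adjusted p = 8.68e-06), while 0 of the 5 Gbp genes were. Against rest, Irf1 was called higher in Th0 (1.02) and lower in Th2 (-1.18). Socs1, an inhibitor of the pathway, was called higher than rest in both, by 2.45 and 2.41, and so was Irf8, by 2.39 and 1.07. Ifng (1.21) and Jak2 (1.26) were called higher than rest in Th2 but not in Th0. The shares of all genes called higher than rest were 6.07% in Th0 and 10.7% in Th2, and 16.5% were called lower in Th2.

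The transcript of the ligand itself ran differently from the Gbp genes. Ifng was at 29.7 and 28.5 RPKM at rest, and in Th0 cultures at 14.9, 19.1, 46.2, 65.035, 75.1 and 94.5 RPKM from 4 to 24 h, so that it was lower than at rest in the 4 and 8 h cultures in which Gbp2, Gbp3, Gbp4, Gbp7 and Gbp9 were all higher. In Th1 cultures it was at 206, 414, 451, 499.9, 428 and 388 RPKM, and in Th2 cultures at 60.5, 62.6, 71.4, 72.975, 75.002 and 66.2 RPKM. Irf1 was at 175 and 174 RPKM at rest, at 643, 519, 334, 306, 262 and 219 RPKM in Th0 cultures and at 232, 100.1, 75.020, 57.967, 46.8 and 42.4 RPKM in Th2 cultures, above rest in 6 of 6 and in 1 of 6. Over the 18 cultures Pearson's r of the 5 Gbp genes on the log2 scale was between 0.94 and 0.98 with Irf1. It was between -0.15 and 0.07 with Ifng. These are descriptions over cultures that share hours and media, and they include the Th2 cultures, whose medium held an antibody to interferon-gamma. The values are of transcripts, and the interferon-gamma protein was not measured in these libraries.

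The immunity-related GTPases, another interferon-induced family that acts on pathogen vacuoles, had 7 of 8 tested genes called lower in Th2 than in Th0 and 0 higher (median -2.54), among them Igtp (-2.50), Irgm1 (-2.70) and Tgtp1 (-2.58). The same count, 7 of 8, were called higher than rest in Th0 (median 2.18) and in Th1 (median 1.87), and 0 in either direction in Th2. Among these GTPases the annotated spans of Igtp and Irgm2 overlap on the same strand, so their levels are uncertain as separate values. Of 17 tested genes of the type I interferon pathway 11 were called lower in Th2 than in Th0 and 0 higher (median -1.08), with Oasl2 at -2.34 and Ifit3 at -2.47. Against rest this list went the other way from the GTPases. In Th0 cultures 8 of 18 were called lower and 0 higher (median -0.80), with Rsad2 at -3.90 and Mx1 at -2.40. In Th2 cultures 16 were called lower (median -2.37). Of all genes tested, 11.4% were called lower than rest in Th0 and 16.5% in Th2 cultures. The shares called higher than rest were 6.07% in Th0 and 8.22% in Th1, and 1.83% were called lower in Th2 than in Th0.

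Of 18 tested partners in cell defence, which include inflammasome and autophagy genes, 1 was called lower in Th2 than in Th0 and 0 higher: Trim21 (-1.36), an antibody receptor in the cytosol. Casp1 (-0.35), Gsdmd (-0.61) and Aim2 (-0.15) were not called. The share of all genes called lower in Th2 than in Th0 was 1.83%. Against rest, 5 of the 18 were called lower in Th2 cultures and 0 higher: Casp1 (-1.29), Gsdmd (-1.03), Aim2 (-1.22), Pycard (-1.09) and Trim21 (-1.28). In Th0 cultures 1 was called lower than rest, Aim2 (-1.07), and in Th1 cultures 2 were, Aim2 (-1.08) and Pycard (-1.13). Of all genes tested, 16.5% were called lower than rest in Th2, 11.4% in Th0 and 13.5% in Th1 cultures. The 6 genes of the prenylation list attach the lipid that anchors some GBPs in membranes, or process the protein end after it is attached. Of these 6, 0 were called in any comparison with Th0 or rest. Their medians were 0.01 in Th2 against Th0 and 0.53 in Th0 against rest. With actinomycin 9 of 15 tested genes of the type I interferon pathway were called as rising and 1 as falling. Of the interferon-gamma genes 0 of 9 were called as rising and 5 as falling, with Irf1 at -0.35 and Ifng at -0.32 per hour. Over all genes tested with actinomycin, 8.95% were called as rising and 12% as falling.

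Among 10865 genes without a Gbp name, Pearson's r with the mean of the 5 was taken over 24 libraries. The 10 highest were Gm43302 (0.985), Tgtp2 (0.984), Tgtp1 (0.976), Samhd1 (0.975), Gm12185 (0.973), Iigp1 (0.954), Tap1 (0.948), Irgm1 (0.947), Irgm2 (0.946) and Ly6a (0.941). Gm43302 lies on the minus strand of chromosome 5 at chr5:105214907-105293695, near Gbp4, Gbp8 and Gbp9. It shared 3.09% of the 50-base windows of Gbp4 and 2.97% of those of Gbp9. Whether it is itself a Gbp gene, and whether shared reads enter its correlation, was not tested. Gm12185 (chr11:48904656-48992226) overlaps Tgtp1 (chr11:48985327-48994172) on the minus strand. Irgm2 (chr11:58199618-58222782) overlaps Igtp (chr11:58199556-58207591) on the plus strand. Samhd1 was at 222 to 228 RPKM at rest, 455 to 1186 RPKM in Th0 and 110.0 to 326 RPKM in Th2 cultures. Taken singly, the nearest 3 were Igtp, Iigp1 and Irgm1 for Gbp2 (0.960 to 0.900), Tgtp2, Tgtp1 and Gm43302 for Gbp3, and Gm43302, Samhd1 and Tgtp2 for Gbp4. For Gbp7 they were 2810474O19Rik, Tmem140 and Stat2 (0.969 to 0.966), and for Gbp9 Nlrc5, Zbp1 and Trim12c (0.968 to 0.959). Stat2 was at 18.6 and 18.7 RPKM at rest, between 13.3 and 68.7 RPKM in Th0 and between 4.93 and 31.1 RPKM in Th2 cultures, so that like Gbp7 it was on both sides of rest.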

How the data were processed

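RNA of 24 libraries of mouse CD4+ T cells was sequenced on an Illumina NextSeq 500. The deposited values are RPKM, computed by the authors from reads mapped with BWA to GRCm38 per the submitters' processing notes; the counting tool, strand setting and annotation are not given in the sources used here. From steps between low values the mapped total of each library was recovered exactly, and Gbp4, Gbp2b and Ifng resolved into whole reads to within 0.001 read; the other named Gbp genes did not, so no count test was run. The 1 row without a name was left out.

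Values were put on the scale log2(RPKM + 0.5) and genes averaging under 1 RPKM were dropped. Models were fitted in limma (3.58.1, R 4.3.3), letting the prior variance follow the level, and p-values were adjusted by Benjamini-Hochberg. The pseudocount makes a fold change of a low gene too small. Skewings were compared over 18 cultures with time as a factor, and with rest over 20 libraries with time and skewing as additive terms; hours were compared with rest without a skewing term. A call needed an adjusted p under 0.05 and, except for slopes, a 2-fold difference, the thresholds the study gives for its microarrays. Scripts were tested on simulated data. Python 3.11.15 with pandas 2.3.3 and numpy 2.4.6 was used for levels, and promoter windows came from RefSeq (GRCm38.p6).

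Named genes were all 5 members, the other Gbp rows, genes of the lists (by mean RPKM or role), the 10 genes most correlated with the mean of the members and the 3 most correlated with each. Alternatives were other pseudocounts, filters, scalings and models and leaving out libraries. The members and lists were chosen with earlier results of these data known, and 1 gene of the interferon-gamma list is not reported here.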

Additional observations from a re-analysis of the deposited data

Results flagged for a closer look

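Each of the 5 Gbp genes was lower in Th2 than in Th0 and in Th1 cultures by limma, the result already given above. The resting libraries were not part of these fits. Between Th2 and Th0 the log2 differences were -2.81 for Gbp2, -2.15 for Gbp3, -2.51 for Gbp4, -2.44 for Gbp7 and -2.31 for Gbp9. Between Th2 and Th1 they were -2.53 for Gbp2, -1.87 for Gbp3, -2.25 for Gbp4, -1.86 for Gbp7 and -2.12 for Gbp9. Gbp7 went in opposite directions from rest, by 1.26 in Th0 and -1.18 in Th2. No group had 4 or more replicate libraries, so no library could be examined as an outlier within its group.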

How the results depend on the processing

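No paired analysis was possible because each culture was sequenced once and the resting libraries share no replicate number with a group of 2. Under all alternatives the 5 Gbp genes stayed called lower in Th2 than in Th0 and in Th1, 0 were called between Th1 and Th0 or for a change of the gap over time, and all 5 were called as falling from 4 to 24 h. The comparisons by hour moved most. At 4 h against rest the count of 2 became 1 without a filter and 5 with skewing as an additive term, and ranged from 0 to 5 when libraries were left out. At 24 h the count of 1 became 0 without a filter or with quantile normalization, 3 with skewing as an additive term and 2 with only the libraries compared, and ranged from 0 to 2 when libraries were left out. The actinomycin count of 4 became 2 without a filter and ranged from 0 to 4 when a library was left out; Gbp2 was not called there without the intensity trend (adjusted p = 0.0752). Gbp3 in Th2 against rest (-0.01) changed sign to 0.11 with median-of-ratios scaling and 0.16 with quantile normalization, and ranged from -0.30 to 0.17 when libraries were left out. Gbp9 in Th1 against rest (0.25) ranged from -0.10 to 0.51, and Gbp3 at 24 h (0.32) from -0.061 to 0.95, none of them called. The causes were not tested. Over all genes, calls at 4 h went from 1152 to 646 and in Th0 against rest from 1901 to 1203 with a mean of at least 5 RPKM, where fewer genes are tested. Calls of all genes for Th2 against Th0 over time went from 553 to 258 without a filter and ranged from 84 to 3035 when a time point was left out. For Th2 against Th1 they went from 117 to 68 and ranged from 22 to 513. For Th1 against Th0 they went from 3 to between 1 and 8 by scaling and pseudocount, and ranged from 0 to 45. Actinomycin calls of all genes went from 2213 to 698 without a filter and ranged from 536 to 3351. Whole reads were recovered for Gbp4 only among the 5 genes, so counting error was not measured for the others, and with 1 library per culture the spread between repeat cultures is unknown.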

Other observations

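At 4 h in Th0 cultures the Gbp genes were at or near their highest while Ifng was at 14.9 RPKM, under its 29.7 and 28.5 RPKM at rest, and in Th1 cultures Gbp2 was at 2015 RPKM with Ifng at 206 RPKM and at 580 RPKM with Ifng at 451 RPKM, 8 h later. Ifngr1, a chain of the receptor for interferon-gamma, was at 466, 437 and 368 RPKM at 4 h in Th0, Th1 and Th2 cultures and at 47.5, 35.4 and 30.5 RPKM at 24 h, so that it was lower at 24 h than at rest (88.6 and 95.1 RPKM) in Th0 and Th1 cultures too. Irf8 went the other way from the Gbp genes in Th0 cultures, from 75.2 RPKM at 4 h to 249 RPKM at 24 h. These values are of transcripts, with no measure of the interferon-gamma protein, and were picked after they were seen.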
